A study of Mus musculus with 60 samples.

Results

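Calf muscle of Largemyd mice was compared with calf muscle of C57Bl/6 mice at 3 months of age. The comparison rests on 10 of the 60 arrays of the series, 5 of each lineage, taken by the lineage and age in their labels, with no measured value used in the choice. The labels give Largemyd as a dystroglycanopathy model and C57Bl/6 as the normal mouse, and describe all animals as untreated males with 1 array each. Largemyd differs from C57Bl/6 by lineage, and no littermate control is named, so the mutation and any other difference between the lineages cannot be told apart. At the same age, 5 Dmdmdx arrays (the Duchenne muscular dystrophy model) and 5 arrays of the Dmdmdx/Largemyd double mutant were used beside them, as were the Largemyd and C57Bl/6 arrays of 21 days and 6 months. Values are log2 RMA expression values, so a difference of 1 is a factor of 2. Errors after a fold change are limma standard errors for groups of n = 5 arrays. They were estimated over all 60 arrays, so they carry the spread of the other lineages and ages. Each p is adjusted by Benjamini-Hochberg over 19938 genes.

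Dystroglycan is the receptor through which a muscle fibre holds its basement membrane. Its extracellular part carries a long sugar chain, built by a series of glycosyltransferases, that binds laminin, and its intracellular end is tied to the cytoskeleton by dystrophin. In the dystroglycanopathies this sugar chain is not completed and the link between fibre and matrix is weak, so fibres break down and are replaced through regeneration, with inflammation and fibrosis. Dmdmdx lacks dystrophin, the cytoskeletal side of the same link.

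The 10 arrays were checked before any gene was compared. C57Bl/6 replicate 3 stood apart: its mean over neutrophil and granulocyte markers was 10.37 against 7.64 to 8.09 in the other 4 controls, and its mean over erythroid markers was 9.30 against 7.46 to 7.70. C57Bl/6 replicate 5 read 10.60 for Xist, which is expressed from the inactive X chromosome of females, where the other 9 arrays read 4.86 to 5.41, so this 1 library did not match its label of male. Among the 5 Dmdmdx arrays, replicates 3 and 5 were high in marrow markers and replicates 4 and 5 in Xist. Only Dmdmdx replicates 1 and 2 remain where the arrays that stood apart are left out, so calls lost there come with fewer arrays. None of the 6-month controls was free of such a sign: C57Bl/6 replicates 1, 2, 4 and 5 read 10.58 to 10.81 for Xist under a male label, and replicate 3 had a neutrophil marker mean of 10.31 against 6.94 to 8.62 in the others. Of the Largemyd arrays of 6 months, replicates 2, 3 and 4 read 11.28 to 11.84 for Xist, and replicate 2 was high in lymph node markers, as were C57Bl/6 replicate 2 and Largemyd replicate 1 of 21 days. Results that these arrays change are given below with and without them. Erythroid and platelet markers were also used as a covariate. Every Largemyd array had a lower erythroid mean (6.76 to 7.08) than any control (7.46 to 9.30). The covariate is thus tied to lineage, and adjusting for it also moves the lineage difference. In bulk muscle, fewer cells of a type and less RNA per cell cannot be told apart.

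**Figure D1:**
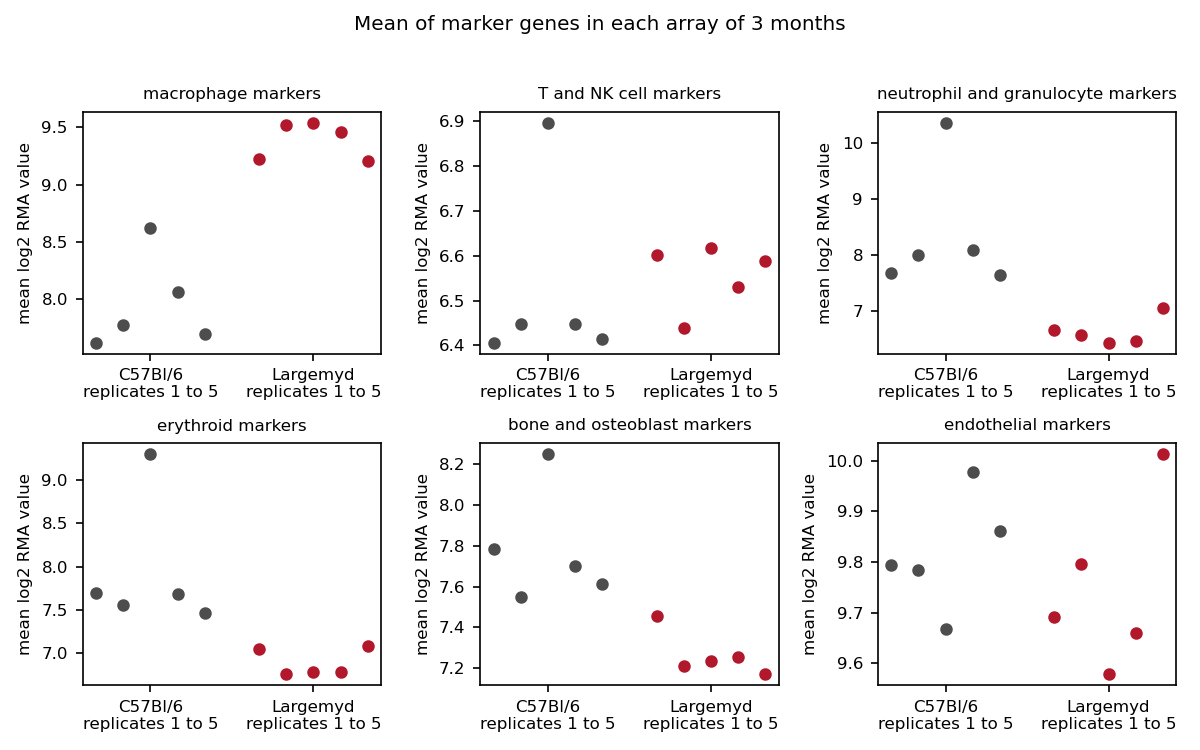
Mean log2 RMA value of 6 lists of cell type markers in each array of 3 months, with C57Bl/6 replicates in grey and Largemyd replicates in red. Macrophage markers were higher in every Largemyd array (9.21 to 9.54) than in any control (7.62 to 8.62), neutrophil and erythroid markers were lower, and C57Bl/6 replicate 3 was the highest control for the marrow, bone and T cell lists.

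Of 19938 genes, 2104 were higher in Largemyd (10.6%) and 1669 lower (8.37%). A change of at least 2-fold was found for 275 of the higher and 74 of the lower genes. The 5 arrays of each lineage did not overlap for 3187 genes (16.0%). The share of higher calls was 55.8% on the values as deposited and 39.9% after each array's median was subtracted, a step that moved the median of all genes by -0.06, so shares of small changes depend on the scaling. The shares of all genes, 10.6% and 8.37%, are the background against which the counts for gene lists below were read. This background moved with the fit. With array weights 3129 genes were higher and 3371 lower, and with marrow markers as a covariate 2647 and 2481. With array medians subtracted 1632 were higher and 2454 lower, and without the arrays that stood apart 2108 and 1772.

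**Figure D2:**
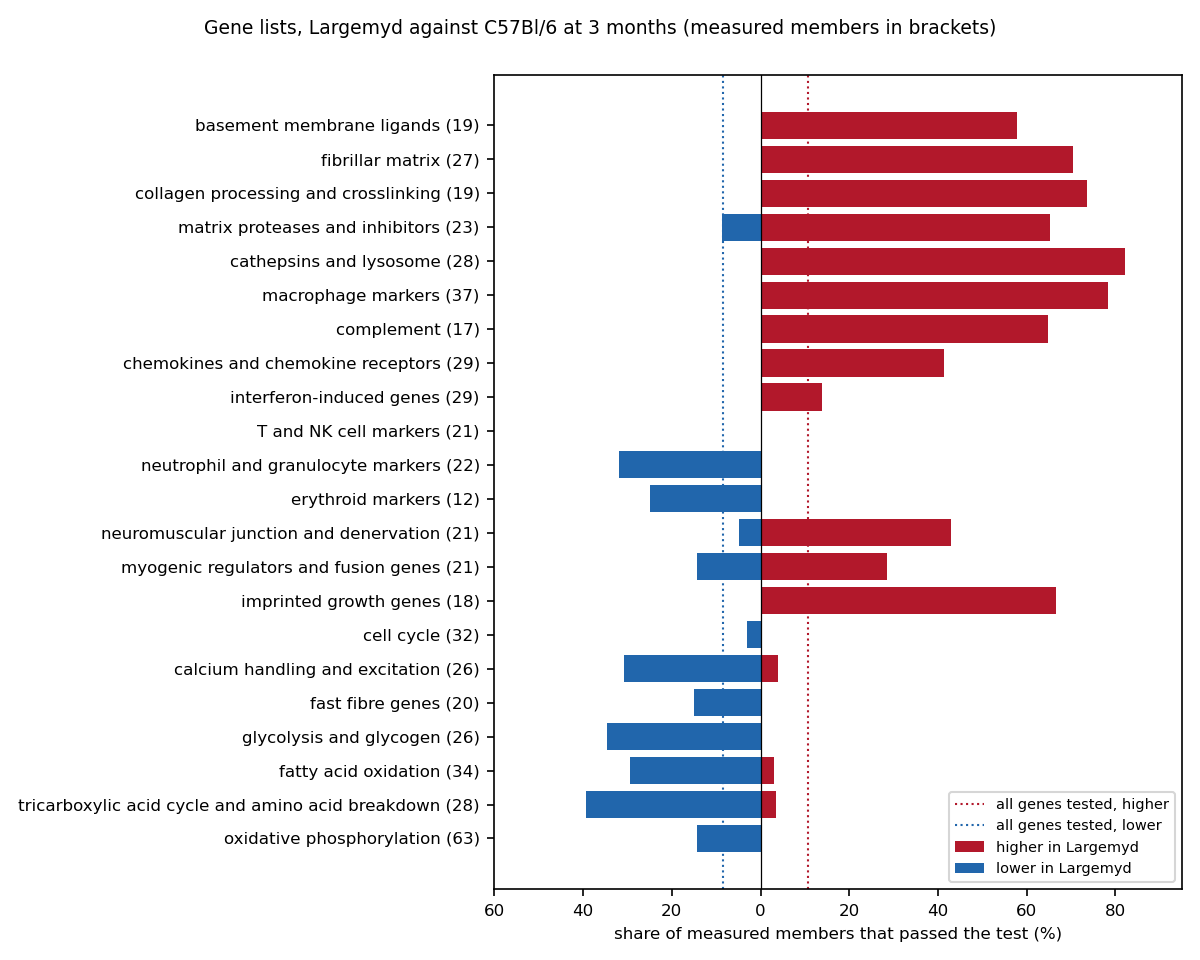
Share of the measured members of 22 gene lists that were higher (red, to the right) or lower (blue, to the left) in Largemyd than in C57Bl/6 at 3 months, with the shares of all genes as dotted lines at 10.6% and 8.37%. Lysosome, macrophage and collagen processing genes had the longest bars to the right and the breakdown of amino acids and glycolysis the longest to the left, and no T and NK cell marker passed.

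The dystrophin complex was measured first, as the complex that dystroglycan belongs to. Of 16 measured members, 2 rose and 1 fell, with a median log2 fold change of -0.01 beside 0.00 over all genes. Dmd, which encodes dystrophin, differed by -0.26 ± 0.18 and did not pass (adjusted p = 0.372), and neither did its homologue Utrn (-0.05, adjusted p = 0.729) or dystroglycan itself, Dag1 (0.09, adjusted p = 0.639). The member that fell was Nos1, the neuronal nitric oxide synthase that the complex anchors at the fibre membrane. Nos1 read 10.02, 9.97, 9.78, 9.89 and 10.39 in C57Bl/6 and 8.64, 7.83, 8.02, 8.18 and 8.84 in Largemyd. The groups did not overlap, and the Largemyd mean was 3.27-fold lower (-1.71 ± 0.21, adjusted p = 1.32e-08). Sgce, the sarcoglycan of many non-muscle cells, rose (0.47 ± 0.09, adjusted p = 8.82e-05), as did Sntb2, a syntrophin (0.40 ± 0.07, adjusted p = 6.35e-06).

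The enzymes that build the sugar chain of dystroglycan were measured next: of 15, 3 rose and 1 fell, with a median of 0.00. Pomt1 and Pomt2 attach the first mannose, Pomgnt2, B3galnt2 and Pomk make the core that follows, and Rxylt1 and B4gat1 start the laminin-binding chain. Of these only B3galnt2 passed. It read 10.37, 10.15, 10.02, 10.01 and 10.15 in C57Bl/6 and 9.83, 9.79, 9.42, 9.55 and 9.93 in Largemyd (-0.44 ± 0.12, adjusted p = 0.00697). The differences of Pomt1, Pomt2, Pomgnt1, Pomgnt2 and Pomk were -0.11, 0.04, 0.25, -0.09 and 0.15, and those of B4gat1, Rxylt1 and Gmppb were -0.08, -0.15 and 0.23. None of these 8 passed (lowest adjusted p = 0.111), and the 3 other members, Gmppa, Dpm1 and Dolk, did not pass either. The members that rose act earlier, in making the dolichol-linked mannose donor: Srd5a3 (0.76 ± 0.13, adjusted p = 1.4e-05), Dpm2 (0.23 ± 0.09, adjusted p = 0.047) and Dpm3 (0.17 ± 0.06, adjusted p = 0.0307). The calls of Dpm2 and Dpm3 were lost when array medians were subtracted, and in turn when single arrays were left out (adjusted p up to 0.247 and 0.129), and 1 of the 15 rose without Largemyd replicate 4 or 5.

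Transcripts of the basement membrane, which holds the ligands of glycosylated dystroglycan, were higher in Largemyd. Of 19 measured members 11 rose and none fell, with a median log2 fold change of 0.45. The 5 largest were Nid2, which links laminin to collagen IV, Col15a1, Lama2, the laminin chain of adult muscle, and the collagen IV chains Col4a1 and Col4a2. Nid2 read 8.26, 8.37, 7.81, 8.47 and 8.31 in C57Bl/6 and 9.26, 9.11, 9.47, 9.32 and 8.98 in Largemyd, 1.98-fold higher without overlap (0.99 ± 0.13, adjusted p = 3.53e-08). Lama2 read 10.11, 9.91, 9.76, 9.81 and 10.003 in C57Bl/6 and 10.57, 10.68, 10.64, 10.69 and 10.88 in Largemyd, 1.71-fold higher (0.77 ± 0.14, adjusted p = 1.95e-05). Every Largemyd array again lay above every control. Col15a1 differed by 0.86 ± 0.19, Col4a1 by 0.73 ± 0.11 and Col4a2 by 0.69 ± 0.11 (adjusted p = 0.000479, 1.14e-06 and 3.97e-06). The other members that rose were Lamb1, Nid1, Col18a1, Lamc1, Lama4 and the heparan sulphate proteoglycan Hspg2, by 0.44 to 0.69. The 8 that did not pass were Col4a5, Lamb2, Col4a4, Lama1, Agrn, Lama3, Col4a3 and Lama5, at -0.18 to 0.23. The number that rose was 11 also with array medians subtracted, without C57Bl/6 replicate 3, and with marrow markers as a covariate, where 1 member fell.

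Of the same 19 genes, 11 also differed between Largemyd and Dmdmdx, a count that depended on the fit. Against the same 5 controls, Dmdmdx had 0 members higher and 1 lower in limma's test (1 higher and 2 lower at an unadjusted p under 0.05), beside 12.3% of all genes higher and 15.8% lower in that comparison, with a median of 0.09. The Dmdmdx differences of Nid2, Col15a1, Lama2, Col4a1 and Col4a2 were 0.31, 0.21, 0.11, 0.17 and 0.14, and none passed (lowest adjusted p = 0.0636). The direct comparison of Largemyd with Dmdmdx called 11 of the 19 higher and 0 lower, where 3.21% of all genes were higher and 1.03% lower. In it Nid2 was higher by 0.68 ± 0.13 (adjusted p = 0.000594), Lama2 by 0.66 ± 0.14 (adjusted p = 0.00202) and Col4a1 by 0.56 ± 0.11 (adjusted p = 0.00124). This count rested on the Dmdmdx arrays and on the spread assumed: it was 8 with array medians subtracted, 5 without Dmdmdx replicate 5, 4 with marrow markers as a covariate, 2 when only the arrays of these groups were fitted and 1 without the arrays that stood apart, while the median over the members was 0.21 to 0.40 in all of these.

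**Figure D3:**
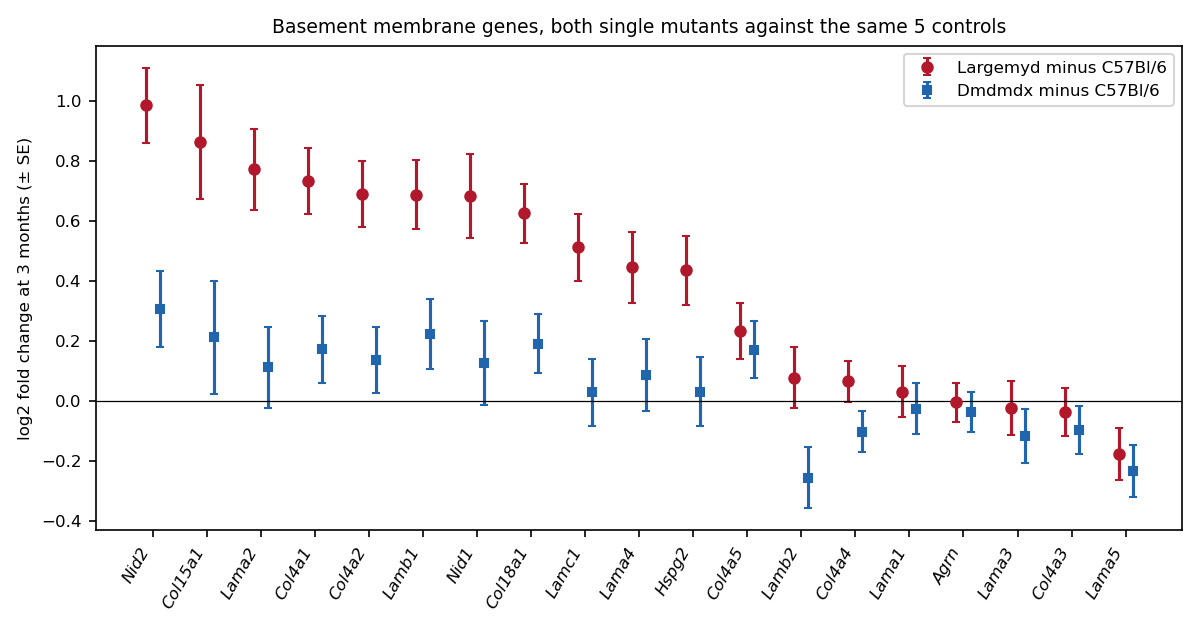
Log2 fold change with its standard error of 19 basement membrane genes at 3 months, for Largemyd and for Dmdmdx, each against the same 5 C57Bl/6 arrays. Nid2, Col15a1, Lama2, Col4a1 and Col4a2 lay between 0.69 and 0.99 in Largemyd and between 0.11 and 0.31 in Dmdmdx.

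Integrins are the other laminin receptors of the fibre. Of 20 integrin and focal adhesion genes 8 rose and none fell, with a median of 0.13. Itga5, a fibronectin receptor chain, rose by 0.60 ± 0.13 and Itgb1, the shared beta chain, by 0.38 ± 0.07 (adjusted p = 0.000564 and 7.04e-05). Ilk, the kinase at the integrin tail, read 10.16, 10.13, 10.24, 10.26 and 10.24 in C57Bl/6 and 10.56, 10.62, 10.75, 10.72 and 10.62 in Largemyd (0.45 ± 0.07, adjusted p = 1.35e-06). Itga7, the main laminin-binding alpha chain of muscle, rose by 0.48 ± 0.17 (adjusted p = 0.0408), a call that 10 of the other settings did not keep, among them the fits without C57Bl/6 replicate 2, 3 or 4 or Largemyd replicate 2, 3, 4 or 5.

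The interstitial matrix was higher as well. Of 27 fibrillar matrix genes 19 rose and none fell (median 0.49), of 19 genes for collagen processing and crosslinking 14 rose and none fell (median 0.60), and of 27 matricellular proteins and proteoglycans 11 rose and 1 fell (median 0.40). Col6a3, a chain of the collagen VI around each fibre, read 9.58, 9.56, 9.38, 9.77 and 9.82 in C57Bl/6 and 10.92, 10.998, 11.20, 11.09 and 10.87 in Largemyd, 2.63-fold higher (1.39 ± 0.18, adjusted p = 4.59e-08). Its difference in Dmdmdx was 0.56 ± 0.18, and Largemyd exceeded Dmdmdx by 0.83 ± 0.18 (adjusted p = 0.00384). Mfap4, a microfibril protein, Col8a1, Col14a1 and Col3a1 rose by 1.70, 1.42, 1.42 and 1.38 (adjusted p at most 2.11e-06). Postn, a matricellular protein of scar tissue, Sfrp1, an inhibitor of Wnt ligands, and Thbs4 rose by 1.70, 1.66 and 1.31, and the small proteoglycan Lum by 1.04. The crosslinking enzymes Loxl1 and Lox rose by 1.07 and 0.97, and the collagen chaperone Serpinh1 by 0.75. The 1 member that fell, Omd, a proteoglycan also made by bone, differed by -0.81 ± 0.26 (adjusted p = 0.0217) and lost its call without C57Bl/6 replicate 3. In Dmdmdx, against the same controls, 15 fibrillar, 14 collagen processing and 13 matricellular genes were higher, and 0, 1 and 0 lower. Tested directly, 5, 2 and 1 were higher in Largemyd than in Dmdmdx and 0, 1 and 0 lower. Without the arrays that stood apart, 0 of each list differed between these mutants. Of 20 markers of fibro-adipogenic progenitors, the resident fibroblasts of muscle, 8 rose and none fell. The median of their array means was 9.77 in the controls and 10.07 in Largemyd, with no overlap. Matrix genes such as Lum, Col6a1 and Col6a2 are among these markers, so the list is no separate measure of the cells. The part of these cells in the result was not tested.

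Proteases and protease inhibitors contained some of the widest gaps. Of 23 matrix proteases and inhibitors 15 rose and 2 fell, with a median of 0.68. Mmp12, the elastase of macrophages, read 6.58, 6.50, 5.90, 6.85 and 6.26 in C57Bl/6 and 10.57, 10.46, 10.80, 10.23 and 10.46 in Largemyd. The groups lay far apart, with a 17-fold higher Largemyd mean (4.09 ± 0.35, adjusted p = 1.02e-12). Timp1, an inhibitor of matrix metalloproteases, read 7.32, 7.63, 8.19, 8.08 and 7.26 in C57Bl/6 and 10.01, 10.79, 10.78, 10.60 and 10.39 in Largemyd, 7.04-fold higher (2.82 ± 0.27, adjusted p = 4.43e-11). Mmp3 rose by 2.34 ± 0.20 and Mmp19 by 2.05 ± 0.18. Timp4 (-0.83 ± 0.30, adjusted p = 0.0453) and Adamts1 (-0.48 ± 0.16, adjusted p = 0.0214) fell, and both lost the call when single arrays were left out (adjusted p up to 0.12 and 0.069). Of 12 serpins and acute phase genes 4 rose and 1 fell. Serpina3n, a secreted inhibitor of serine proteases, read 8.35, 8.74, 8.91, 8.86 and 8.12 in C57Bl/6 and 11.15, 11.90, 11.38, 11.28 and 12.30 in Largemyd, 8.04-fold higher (3.01 ± 0.34, adjusted p = 1.2e-09). Serpinb1a, an intracellular inhibitor of neutrophil proteases, rose by 1.78 ± 0.28. The 1 that fell, Lcn2, is also a neutrophil marker and is given with those.

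**Figure D4:**
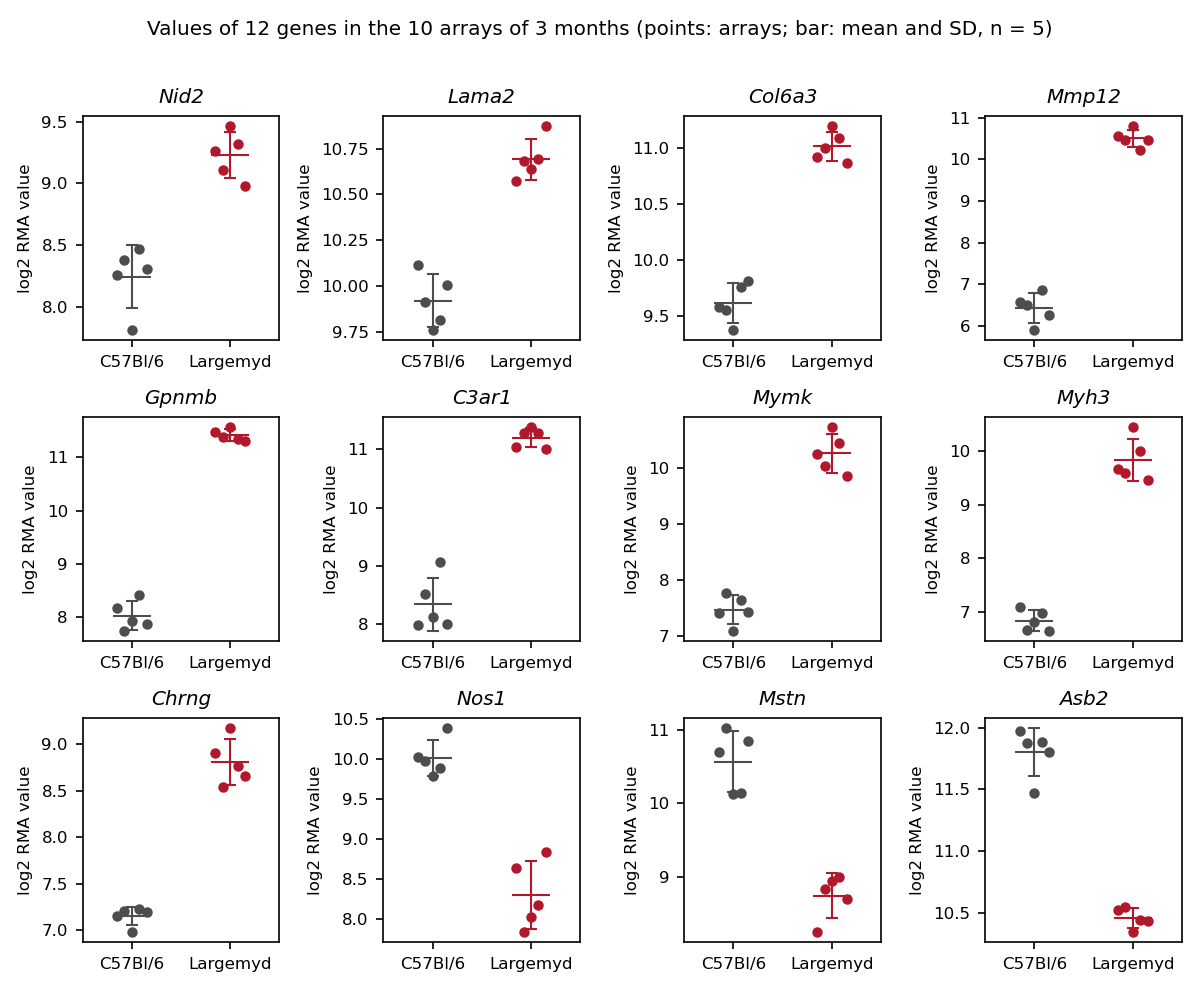
Log2 RMA values of 12 genes in each C57Bl/6 and Largemyd array of 3 months, with bars for the mean and SD of 5 arrays. The groups did not overlap for any of the 12: Nid2, Lama2, Col6a3, Mmp12, Gpnmb, C3ar1, Mymk, Myh3 and Chrng were higher in Largemyd, and Nos1, Mstn and Asb2 lower.

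Macrophage markers had the highest median of the lists. Of 37 measured 29 rose and none fell, with a median of 1.37, and 31 rose without C57Bl/6 replicate 3. Gpnmb, a membrane glycoprotein of phagocytes that take up debris, read 8.16, 7.73, 7.92, 8.42 and 7.85 in C57Bl/6 and 11.48, 11.39, 11.57, 11.35 and 11.30 in Largemyd, 10.6-fold higher (3.41 ± 0.28, adjusted p = 3.45e-13). C3ar1, the receptor for the complement fragment C3a, read 7.99, 8.53, 8.13, 9.06 and 8.0 in C57Bl/6 and 11.04, 11.28, 11.38, 11.29 and 10.9997 in Largemyd, 7.23-fold higher (2.85 ± 0.26, adjusted p = 9.81e-12). Both gaps exceeded the whole range within either group. Lgals3, Ms4a6d and Ms4a7 rose by 2.62, 2.58 and 2.45. The Dmdmdx differences from the same controls were 3.10 for Gpnmb, 3.08 for C3ar1 and 2.66 for Lgals3, and the differences between the mutants did not pass for these genes.

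Genes of the lysosome, complement and cytokine systems rose with them. Of 28 cathepsins and lysosomal genes 23 rose and none fell (median 0.83). Ctss, the cathepsin that trims the class II invariant chain, rose 7.3-fold (2.87 ± 0.29, adjusted p = 8.95e-11), and Atp6v0d2, a proton pump subunit of macrophages and osteoclasts, 7.48-fold (2.90 ± 0.47, adjusted p = 5.37e-06). Lipa, the lysosomal acid lipase, and Lgmn, an endopeptidase, rose by 1.82 and 1.60. Of 17 complement genes 11 rose and none fell (median 0.82), and the chains of C1q, which starts the classical pathway, rose by similar amounts, C1qa by 1.71 ± 0.17, C1qb by 1.78 ± 0.17 and C1qc by 1.77 ± 0.19. Of 29 chemokines and their receptors 12 rose and none fell (median 0.63), led by Ccl8 (2.60), Ccl7 (2.17), Ccl2 (2.11) and Ccl3 (1.97), ligands that draw monocytes and other leukocytes. Of 25 cytokines and receptors 13 rose and none fell (median 0.41), among them Il7r by 1.90 ± 0.45 and Il13ra1 by 1.39 ± 0.13. Macrophage markers moved with all of these lists, with array means of 7.62 to 8.62 in C57Bl/6 and 9.21 to 9.54 in Largemyd, and their part in these counts was not tested. The lists share members: the macrophage markers C3ar1 and Laptm5 also belong to the complement and lysosome lists.

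Class II antigen presentation rose in part. Of 11 measured genes 5 rose and none fell (median 0.78), and 8 rose without the arrays that stood apart. The 5 include Ctss, given above with the lysosome, and H2-Ea, given below. In Dmdmdx, against the same controls, 7 of the 11 rose and none fell (median 1.01). Tested directly, only H2-Ea was higher in Largemyd than in Dmdmdx and 0 were lower (median -0.30). Cd74, the invariant chain, read 10.04, 9.90, 10.57, 9.92 and 10.07 in C57Bl/6 and 11.40, 11.73, 11.84, 11.58 and 11.42 in Largemyd (1.49 ± 0.30, adjusted p = 0.000143). H2-Aa, a class II alpha chain, read 10.09, 9.90, 10.54, 9.97 and 10.002 in C57Bl/6 and 11.34, 11.45, 11.61, 11.37 and 11.40 in Largemyd (1.33 ± 0.29, adjusted p = 0.000506). H2-Eb1, a class II beta chain, rose by 0.78 ± 0.28 (adjusted p = 0.0376), a call lost in 7 other settings (adjusted p up to 0.092 with single arrays left out). Class II genes are controlled as a set through the X and Y boxes of their promoters. The 200 bases before the start of H2-Aa and H2-Eb1, from RefSeq (GRCm38.p6), are shown because these genes rose together, with the Y box letters CTGATTGG in capitals. H2-Aa lies at chr17:34287824-34288023 on the minus strand and H2-Eb1 at chr17:34305667-34305866 on the plus strand, and the Y box letters begin 51 and 62 bases before the start.

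H2-Aa: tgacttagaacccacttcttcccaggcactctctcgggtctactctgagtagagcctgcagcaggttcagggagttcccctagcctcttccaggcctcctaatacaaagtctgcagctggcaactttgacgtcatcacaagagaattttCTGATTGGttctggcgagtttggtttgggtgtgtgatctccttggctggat

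H2-Eb1: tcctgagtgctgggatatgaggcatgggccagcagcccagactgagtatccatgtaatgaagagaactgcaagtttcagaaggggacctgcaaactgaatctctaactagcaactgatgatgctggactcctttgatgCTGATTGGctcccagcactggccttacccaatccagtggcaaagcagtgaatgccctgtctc

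These letters, searched on both strands, were in 3.54% of 32851 promoter windows of the same length. The match is a description of the sequence and no measure of binding. Cd74 also rose and its promoter is not shown, so the match describes H2-Aa and H2-Eb1 only.

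H2-Ea, the class II E alpha chain, had the largest difference of any named gene. It read 5.97, 6.31, 5.89, 5.89 and 6.0 in C57Bl/6 and 11.99, 12.11, 12.28, 12.04 and 11.34 in Largemyd, 61.4-fold higher (5.94 ± 0.89, adjusted p = 8.87e-07). The 5 Dmdmdx arrays read 5.85 to 6.35, at the level of the controls, with a difference of 0.03 ± 0.89 (adjusted p = 0.988). As background, mice of the b haplotype of the major histocompatibility complex, C57Bl/6 among them, carry a deletion that silences H2-Ea.

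Lymphoid and interferon genes had fewer calls than the macrophage markers. None of 21 T and NK cell markers passed in limma's test (median 0.04), with 1 higher at an unadjusted p under 0.05, and 3 rose and 1 fell without the arrays that stood apart. Of 12 dendritic cell markers 4 rose, with Itgax, an integrin also carried by macrophages, by 2.14 ± 0.22 and the co-stimulatory ligands Cd86 and Cd80 by 1.01 and 0.75. Of 29 interferon-induced genes 4 rose and none fell (median 0.19): Ifi27l2a by 0.88, Irf8 by 0.88, Mx2 by 0.54 and Ifi35 by 0.35 (adjusted p = 0.0295, 0.0197, 0.0196 and 0.0496). Each of these 4 lost its call in at least 3 of the other settings. The number that rose was 0 without C57Bl/6 replicate 5 and 2 without any 1 of C57Bl/6 replicates 1 and 2 and Largemyd replicates 2, 4 and 5. It was 7 with marrow markers as a covariate or with the arrays of 3 months alone, 8 with only the arrays compared and 12 with array weights. In Dmdmdx, against the same controls, 22 of the 29 rose, with a median of 0.67. Tested directly, 4 were lower in Largemyd than in Dmdmdx (median -0.45), and 0 without the arrays that stood apart.

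Markers of marrow and bone were lower in Largemyd, by counts that depended on the arrays kept. Of 22 neutrophil and granulocyte markers 7 fell and none rose (median -1.76), of 12 erythroid markers 3 fell (median -0.89) and of 11 bone markers 3 fell (median -0.13). Ngp, a neutrophil granule protein, read 9.38, 10.56, 13.20, 10.26 and 9.97 in C57Bl/6 and 6.04, 5.88, 5.65, 5.95 and 8.45 in Largemyd (-4.28 ± 1.27, adjusted p = 0.0112). S100a8, a calcium-binding protein abundant in neutrophils, read 8.95, 9.21, 12.47, 9.71 and 8.93 in C57Bl/6 and 6.57, 6.47, 6.31, 5.99 and 7.64 in Largemyd (-3.26 ± 1.01, adjusted p = 0.0163). C57Bl/6 replicate 3 was the highest in both, and the other controls still lay above Largemyd. Without C57Bl/6 replicate 3 only 1 of the 22 neutrophil markers and 1 of the 12 erythroid markers fell: Ngp kept its call (adjusted p = 0.048) and S100a8, S100a9, Ltf, Chil3, Camp and Slc4a1 lost theirs (adjusted p from 0.068 to 0.17). Without the arrays that stood apart in any lineage or age, 15 of the 22 neutrophil markers and 9 of the 12 erythroid markers fell, with medians of -1.32 and -0.55. With marrow markers (erythroid and platelet) as a covariate, 3 neutrophil markers fell and 1 rose, the median was -0.09 and Ngp did not pass (adjusted p = 0.057). Without Largemyd replicate 2, 4 of the 22 fell. Ibsp, a bone matrix protein, read 8.89, 7.61, 10.55, 8.28 and 7.69 in C57Bl/6 and 5.49, 5.37, 5.05, 5.27 and 5.37 in Largemyd (-3.29 ± 0.91, adjusted p = 0.00649), and kept its call without replicate 3 (adjusted p = 0.032). Lcn2, a neutrophil and acute phase protein, differed by -2.32 ± 0.84 (adjusted p = 0.0422), a call 10 other settings did not keep. The labels describe dissected calf muscle and name no marrow or bone.

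Regeneration genes rose as a small group. New fibres form when satellite cells activate the myogenic regulators, fuse and first make embryonic sarcomere proteins. Of 18 satellite cell markers 4 rose, of 21 myogenic regulators and fusion genes 6 rose and 3 fell, and of 24 embryonic and regenerating sarcomere genes 7 rose and 2 fell, with medians of 0.20, 0.10 and 0.03. The satellite cell markers that rose were 2 without C57Bl/6 replicate 3 and 7 with array weights. Mymk, the membrane protein that drives myoblast fusion, read 7.40, 7.76, 7.08, 7.65 and 7.43 in C57Bl/6 and 10.25, 10.02, 10.73, 10.44 and 9.85 in Largemyd, 6.94-fold higher (2.80 ± 0.33, adjusted p = 5.58e-09). Its partner Mymx rose by 0.79 ± 0.16 and the regulators Myog and Myf5 by 1.62 ± 0.27 and 0.72 ± 0.18. Myh3, the embryonic myosin heavy chain, read 7.09, 6.67, 6.82, 6.98 and 6.66 in C57Bl/6 and 9.66, 9.58, 10.44, 9.99 and 9.46 in Largemyd, 7.89-fold higher (2.98 ± 0.36, adjusted p = 1.07e-08). Myl4, the embryonic light chain, rose by 2.10 ± 0.15, among the 5 rises with the largest test statistics (adjusted p = 8.02e-15), and Myh8, the perinatal heavy chain, by 1.34 ± 0.25. Tnnt2 and Ankrd1, a troponin and a stress protein of heart and immature muscle, rose by 2.31 and 2.25. Eya1 and Six4, which cooperate in the fast fibre programme, fell by 0.67 and 0.66 on the log2 scale, and Fhod3 and Nrap, sarcomere assembly proteins, by 0.67 and 0.48, Nrap with a call that 5 other settings did not keep. Of 32 cell cycle genes none rose and 1 fell (median 0.04) in limma's test, with 0 higher and 2 lower at an unadjusted p under 0.05, while with marrow markers as a covariate 15 rose and 1 fell.

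Acetylcholine receptor genes of immature and denervated muscle rose. Of 21 genes of the neuromuscular junction and denervation 9 rose and 1 fell (median 0.13). Myog and Ncam1, among the rises, are also in the list of myogenic regulators. Chrng, the fetal gamma subunit, read 7.15, 7.20, 6.97, 7.22 and 7.19 in C57Bl/6 and 8.91, 8.54, 9.18, 8.77 and 8.66 in Largemyd, 3.17-fold higher (1.66 ± 0.28, adjusted p = 7.47e-06). Chrna1, the alpha subunit, read 9.36, 9.37, 9.04, 9.76 and 9.50 in C57Bl/6 and 10.97, 10.93, 11.29, 11.03 and 10.97 in Largemyd, 3.1-fold higher (1.63 ± 0.24, adjusted p = 5.22e-07). Neither gene's groups overlapped. Ncam1, an adhesion molecule that spreads over denervated fibres, rose by 1.49 ± 0.20 and Runx1, a transcription factor induced by denervation, by 1.32 ± 0.17. Lrp4, the receptor for agrin, fell by 0.26 on the log2 scale (adjusted p = 0.0152), and not without C57Bl/6 replicate 5 (adjusted p = 0.056). Myogenic regulators such as myogenin bind E boxes, and the promoters of Chrna1 (chr2:73580339-73580538, minus strand) and Chrng (chr1:87205611-87205810, plus strand) are shown because both genes and Myog rose. The 200 bases before the start are from RefSeq (GRCm38.p6), with the E box letters CAGCTG in capitals, beginning 92 and 44 bases before the start of Chrna1 and 155 and 132 before that of Chrng.

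Chrna1: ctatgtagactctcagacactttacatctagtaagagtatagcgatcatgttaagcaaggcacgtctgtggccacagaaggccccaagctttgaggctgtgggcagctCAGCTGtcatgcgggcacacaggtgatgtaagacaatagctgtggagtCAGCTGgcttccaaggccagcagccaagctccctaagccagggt

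Chrng: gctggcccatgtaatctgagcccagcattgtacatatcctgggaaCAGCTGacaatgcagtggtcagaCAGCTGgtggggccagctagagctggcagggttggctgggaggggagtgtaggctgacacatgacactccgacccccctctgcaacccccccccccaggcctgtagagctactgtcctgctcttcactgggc

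Of the 32851 promoter windows, 10.9% held these letters, which read the same on both strands, and 0.916% held them at least 2 times. A match is a description of the window and shows no binding. Myog, Ncam1 and Runx1 also rose and their promoters are not shown, so the matches describe Chrna1 and Chrng only.

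Of the genes of mature fibres, the number called depended on the fit. Of 20 fast fibre genes 3 fell and none rose (median -0.10), and of 17 slow fibre genes 2 rose and 1 fell (median -0.12). The fast fibre genes that fell were 8 with array weights and 11 with marrow markers as a covariate (median -0.22), where 3371 and 2481 of all 19938 genes fell. Mylk4 and Mylk2, myosin light chain kinases, fell by 1.20 and 0.91 on the log2 scale (adjusted p = 0.0172 and 0.00845), and Myh2, the IIa heavy chain, by 0.68 (adjusted p = 0.0142). Mylk4 and Myh2 lost the call when certain single arrays were left out (adjusted p up to 0.078 and 0.056). Sln, which inhibits the calcium pump of the sarcoplasmic reticulum, rose by 1.06 ± 0.19 (adjusted p = 2.16e-05). Of 26 calcium handling and excitation genes 1 rose and 8 fell (median -0.13), and 14 fell with the covariate. Kcnc4, a potassium channel, read 9.62, 9.72, 9.40, 9.75 and 9.78 in C57Bl/6 and 9.06, 8.52, 8.32, 8.70 and 8.64 in Largemyd (-1.01 ± 0.14, adjusted p = 1.85e-07). Kcnj2, an inward rectifier, Dhrs7c, a reticulum protein, and Clcn1, the chloride channel that sets resting excitability, fell by 1.04, 0.94 and 0.76.

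Part of the genes of energy metabolism fell, in numbers that depended on the fit. Of 26 glycolysis and glycogen genes 9 fell and none rose (median -0.33), of 34 fatty acid oxidation genes 10 fell and 1 rose (median -0.21) and of 28 genes of the tricarboxylic acid cycle and amino acid breakdown 11 fell and 1 rose (median -0.25). The numbers that fell were 15, 17 and 20 with array weights and 16, 17 and 23 with marrow markers as a covariate, with covariate medians of -0.54, -0.31 and -0.37. Of all 19938 genes, 3371 fell with array weights and 2481 with the covariate, against 1669 without either. Hk2, the insulin-regulated hexokinase, read 10.76, 10.99, 10.66, 11.05 and 11.01 in C57Bl/6 and 9.78, 9.99, 10.17, 10.09 and 9.69 in Largemyd (-0.95 ± 0.15, adjusted p = 3.48e-06). Slc2a4, the insulin-responsive glucose transporter, fell by 0.91 and Gpd2, of the glycerol phosphate shuttle, by 0.93. The lipid-sensing receptor Ppara fell by 0.97 (adjusted p = 0.000102), while Angptl4, an inhibitor of lipoprotein lipase, rose by 1.16 ± 0.26. Got1, Ivd and Dbt, which act in amino acid breakdown, fell by 0.72, 0.61 and 0.57. Of 63 oxidative phosphorylation genes 9 fell and none rose (median -0.18), led by Ndufa12 (-0.73) and Cox6a2 (-0.57). That count of 9 was 4 with the arrays of 3 months alone and 3 to 5 without any 1 of C57Bl/6 replicates 1, 2, 4 and 5 and Largemyd replicates 1, 2, 4 and 5. It was 18 with array medians subtracted, 20 without the arrays that stood apart, 25 with array weights and 43 with marrow markers as a covariate. The 43 is no neutral check, since the erythroid means within the covariate did not overlap between the lineages. Of 13 creatine, purine and ATP buffering genes 3 rose and 4 fell (median -0.11). The enzymes of creatine synthesis were among the rises, Gamt by 1.21 ± 0.25 and Gatm by 1.17 ± 0.18, and Ampd1, the AMP deaminase of muscle, fell by 0.59 (adjusted p = 0.00917).

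Dmdmdx and Largemyd were set side by side for the energy lists. Against the same controls 30 of 34 fatty acid oxidation genes and 49 of 63 oxidative phosphorylation genes were lower in Dmdmdx, with medians of -0.59 and -0.42. Tested directly, 14 fatty acid oxidation genes were higher in Largemyd than in Dmdmdx and none lower (median 0.35), as were 8 oxidative phosphorylation genes, 2 of 28 genes of the tricarboxylic acid cycle and amino acid breakdown and 1 of 26 of glycolysis, beside 3.21% of all genes. The 14 became 10 with array medians subtracted, 1 with marrow markers as a covariate and 0 without the arrays that stood apart or with only these arrays fitted. The 8 became 4, 0, 0 and 0 in the same order. Ucp3, a mitochondrial carrier induced by fatty acids, was 1 of the 5 largest: it differed from C57Bl/6 by -0.25 ± 0.25 in Largemyd (adjusted p = 0.581) and by -1.39 ± 0.25 in Dmdmdx, and Largemyd exceeded Dmdmdx by 1.14 ± 0.25 (adjusted p = 0.00395).

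Among secreted muscle peptides, Ostn and Mstn were 2 of the 10 largest falls without overlap between the groups. Of 30 muscle-secreted peptides and growth factors 10 rose and 3 fell (median 0.10). Ostn, the hormone osteocrin, read 9.15, 9.36, 9.10, 8.92 and 9.93 in C57Bl/6 and 6.41, 7.82, 7.60, 7.47 and 6.19 in Largemyd, 4.58-fold lower (-2.20 ± 0.26, adjusted p = 7.67e-09). Mstn, myostatin, the inhibitor of muscle growth, read 10.70, 11.02, 10.12, 10.14 and 10.84 in C57Bl/6 and 8.25, 8.83, 8.95, 9.0 and 8.70 in Largemyd, 3.53-fold lower (-1.82 ± 0.30, adjusted p = 4.71e-06). Neither gene's groups overlapped, and both calls held under every alternative run for that comparison. Igf2, a fetal growth factor, read 9.47, 10.05, 9.03, 9.22 and 9.70 in C57Bl/6 and 11.64, 11.41, 12.18, 12.09 and 11.23 in Largemyd, 4.64-fold higher (2.22 ± 0.21, adjusted p = 1.49e-11). Hgf, which activates satellite cells, rose by 1.09 ± 0.14. Imprinted growth genes, to which Igf2 belongs, had 12 of 18 higher and none lower (median 0.47), including Mest (2.02) and Peg3 (1.61). Of 25 TGF-beta signalling genes 8 rose and 3 fell (median 0.16), and 1 fell without any 1 of C57Bl/6 replicate 2 and Largemyd replicates 2 and 3.

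Stress and repair genes rose in several lists. The metallothioneins, which bind zinc and copper, are the clearest: Mt2 read 10.34, 10.37, 10.77, 10.86 and 10.55 in C57Bl/6 and 12.73, 13.25, 13.02, 12.89 and 13.30 in Largemyd, 5.49-fold higher (2.46 ± 0.24, adjusted p = 3.9e-11), and Mt1 rose by 1.84 ± 0.26. Of 24 oxidative stress genes, Mt1 and Mt2 included, 8 rose and 2 fell (median 0.14). Cyba and Cybb, the membrane subunits of the phagocyte NADPH oxidase, rose by 1.27 ± 0.25 and 1.28 ± 0.38, and Nqo1, a quinone reductase, fell by 0.64 (adjusted p = 0.00269). The call of Cybb was lost without C57Bl/6 replicate 1 (adjusted p = 0.0549). Of 25 genes of endoplasmic reticulum stress and the amino acid response 12 rose and 4 fell (median 0.23). The folding enzymes Pdia3 and Pdia4 rose by 0.72 and 0.67 and the serine synthesis enzyme Psat1 by 0.88, while Chac1, which degrades glutathione, fell by 1.54 (adjusted p = 0.00136). The heat shock and protein folding list did not rise, with 1 of 21 higher and 2 lower (median -0.06). Of 24 membrane repair and trafficking genes 10 rose and 1 fell (median 0.21), with S100a4, Anxa4, Myof, a homologue of dysferlin, and Anxa2 higher by 1.44, 1.35, 1.34 and 1.01. Of 29 atrophy and proteolysis genes 3 rose, Mt1 and Mt2 among them, and 4 fell (median -0.14), and 8 fell with only the arrays compared. Asb2, a ubiquitin ligase subunit of muscle, read 11.97, 11.87, 11.47, 11.89 and 11.80 in C57Bl/6 and 10.52, 10.55, 10.34, 10.44 and 10.43 in Largemyd, 2.54-fold lower (-1.34 ± 0.18, adjusted p = 9.99e-08). Of 16 clock genes 4 fell (median -0.44), and 8 with array medians subtracted and 7 without C57Bl/6 replicate 1 or Largemyd replicate 4. Ciart, a repressor of the clock, fell by 1.25 (adjusted p = 0.00339), and its call was lost when only the arrays compared were fitted and without the arrays that stood apart.

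Several of the largest changes have not yet been given. Pcbd1, a cofactor of HNF1 and an enzyme of tetrahydrobiopterin recycling, read 7.24, 6.71, 7.01, 7.13 and 6.87 in C57Bl/6 and 9.55, 9.90, 10.33, 10.16 and 9.72 in Largemyd, 7.67-fold higher (2.94 ± 0.23, adjusted p = 1.62e-13). Its Dmdmdx difference was 2.20 ± 0.23. Hal, which breaks down histidine and is the 1 member of the amino acid breakdown list that rose, read 6.19, 6.46, 6.21, 6.41 and 6.50 in C57Bl/6 and 9.62, 10.18, 10.10, 10.06 and 8.64 in Largemyd (3.36 ± 0.56, adjusted p = 7.59e-06), against 0.19 ± 0.56 in Dmdmdx. Klk1b22, a tissue kallikrein, read 5.34, 5.67, 4.97, 5.80 and 5.85 in C57Bl/6 and 9.38, 8.75, 8.16, 8.27 and 8.35 in Largemyd (3.05 ± 0.46, adjusted p = 9.57e-07), against -0.37 ± 0.46 in Dmdmdx. Kallikrein genes are near-identical copies, so its probe set may read others of the family. Akr1e1, an aldo-keto reductase, rose by 2.98 ± 0.43 in Largemyd and by 3.0 ± 0.43 in Dmdmdx. The largest test statistic belonged to Ocel1, which rose by 1.16 ± 0.08 (adjusted p = 1.92e-15), with 0.07 ± 0.08 in Dmdmdx. Fbln7, a fibulin of the matrix, rose by 2.03 ± 0.17, and exceeded Dmdmdx by 0.94 ± 0.17 (adjusted p = 0.000296). The falls with the largest statistics were Gpcpd1, a glycerophosphocholine phosphodiesterase, Dglucy, Dusp8, a phosphatase of stress kinases, Hoxd10, a limb homeobox gene, and Xpr1, a phosphate exporter, by 1.20, 0.78, 1.01, 1.16 and 0.77 on the log2 scale.

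The series asks what sets Largemyd and the double mutant apart from Dmdmdx. Largemyd differed from Dmdmdx at 3 months in 845 genes, 640 higher and 205 lower, a share of higher genes of 75.7% that became 61.3% with array medians subtracted. Apart from H2-Ea, Klk1b22, Hal and Ucp3, the largest rise was Pttg1, a securin, higher by 1.23 ± 0.13: it was below C57Bl/6 in both, by -1.70 in Dmdmdx and -0.48 in Largemyd. The largest falls against Dmdmdx were Chil3, Ly6a2, Cyp4f18, Ms4a4c and Ifi209 (-3.12, -3.05, -2.15, -1.98 and -1.90). Chil3 is a chitinase-like protein of macrophages and neutrophils, and Ifi209 is induced by interferon. Of the 22 neutrophil markers, which include Chil3, 1 was lower in Largemyd than in Dmdmdx. It was 0 without Dmdmdx replicate 5, with the marrow covariate, with only these groups fitted and without the arrays that stood apart. Of the 37 macrophage markers, which include Ms4a4c, 2 were lower. That number was 0 without Dmdmdx replicate 5 or with the covariate, 1 without the arrays that stood apart and 4 with only these groups. The count of 845 fell to 227 without Dmdmdx replicate 5, to 88 when only these arrays were fitted and to 89 without the arrays that stood apart, and was 1394 without Dmdmdx replicate 1.

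The double mutant differed from Largemyd in few genes, 73 higher (0.366%) and 154 lower (0.772%). Dmd was lower by 0.83 on the log2 scale (adjusted p = 0.0056). The other large falls were Klk1b22 (-3.26 ± 0.46), Akr1e1 (-1.69 ± 0.43), Pttg1 (-1.66 ± 0.13), Ublcp1 (-1.28 ± 0.19) and Ppp1r3c, a glycogen-targeting subunit (-1.23 ± 0.28). The rises were led by Nxpe4 (1.56 ± 0.18), Lrmda (1.49 ± 0.14), Sh2d1b1 (1.36 ± 0.25) and Lyz1, a lysozyme of myeloid cells (1.19 ± 0.24). None of the 19 basement membrane genes differed in limma's test, also at an unadjusted p under 0.05 (median 0.05), and 3 of 37 macrophage markers were higher. The 227 calls became 1327 when only these arrays were fitted and 103 without double mutant replicate 4.

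Age changed parts of the Largemyd difference. At 21 days 1972 genes were higher than in C57Bl/6 (9.89%) and 2617 lower (13.1%), and at 6 months 3076 were higher (15.4%) and 3407 lower (17.1%), with the 6-month controls that did not match their labels or were high in marrow markers. The difference moved upward from 21 days to 3 months for 398 genes (2.0%) and downward for 128 (0.642%). An upward move can be a larger rise or a smaller fall. Basement membrane genes had 2 of 19 higher at 21 days, 11 at 3 months and 12 at 6 months, with medians of 0.06, 0.45 and 0.49, and the change from 21 days to 3 months passed for 3 of them: Nid2 by 0.87 ± 0.18, Col15a1 by 0.95 ± 0.27 and Col4a1 by 0.58 ± 0.16. The matrix genes Col14a1, Col3a1 and Serpinh1 gained 1.13, 1.04 and 0.81, Mmp3 gained 1.75 ± 0.28 and Igf2 1.73 ± 0.29. The Nos1 difference was -0.36 ± 0.21 at 21 days and changed by -1.35 ± 0.30 to 3 months (adjusted p = 0.00537). Myh8 and Agtr2, an angiotensin receptor, were higher at 21 days by 2.77 and 1.85, and the differences changed by -1.43 and -1.65 to 3 months. That of Bdh1, an enzyme of ketone use, changed by -1.43 ± 0.26. Macrophage markers had 31, 29 and 31 of 37 higher at the 3 ages, and cell cycle genes 15, 0 and 0 of 32. In neither list did any member pass the test of the change between ages, and with marrow markers as a covariate 15 cell cycle genes were higher at 3 months.

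From 3 to 6 months the difference moved upward for 14 genes (0.0702%) and downward for 68 (0.341%). These 82 calls became 10 without Largemyd replicate 2 of 6 months and 333 without Largemyd replicate 5 of 6 months. The largest downward changes were Mybph (-1.62 ± 0.37), Mical2 (-1.50 ± 0.22), Lrtm1 (-1.38 ± 0.31), Fbp2, a fructose bisphosphatase of muscle (-1.30 ± 0.32), and Casr (-1.21 ± 0.23). Mcpt4 and Cma1, proteases of mast cells, moved upward by 1.72 ± 0.35 and 1.02 ± 0.21, as did Rgs13 (0.99) and Ndnf (0.96). At 6 months 9 of 14 mast cell and eosinophil markers and 11 of 19 adipocyte markers were higher, against 1 of 14 and 1 of 19 at 3 months. The change itself passed for 2 of the 14, Mcpt4 and Cma1, and for 0 of the 19. Oxidative phosphorylation genes were lower for 26, 9 and 50 of 63 members at the 3 ages and calcium handling genes for 14, 8 and 20 of 26. No member of these 2 lists passed the test of the change from 21 days to 3 months or from 3 to 6 months. Endothelial markers were lower for 13 of 21 at 21 days, lower for 3 and higher for 1 at 3 months, and higher for 9 at 6 months, while the change passed for 2 of the 21 from 21 days to 3 months and for 0 from 3 to 6 months.

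**Figure D5:**
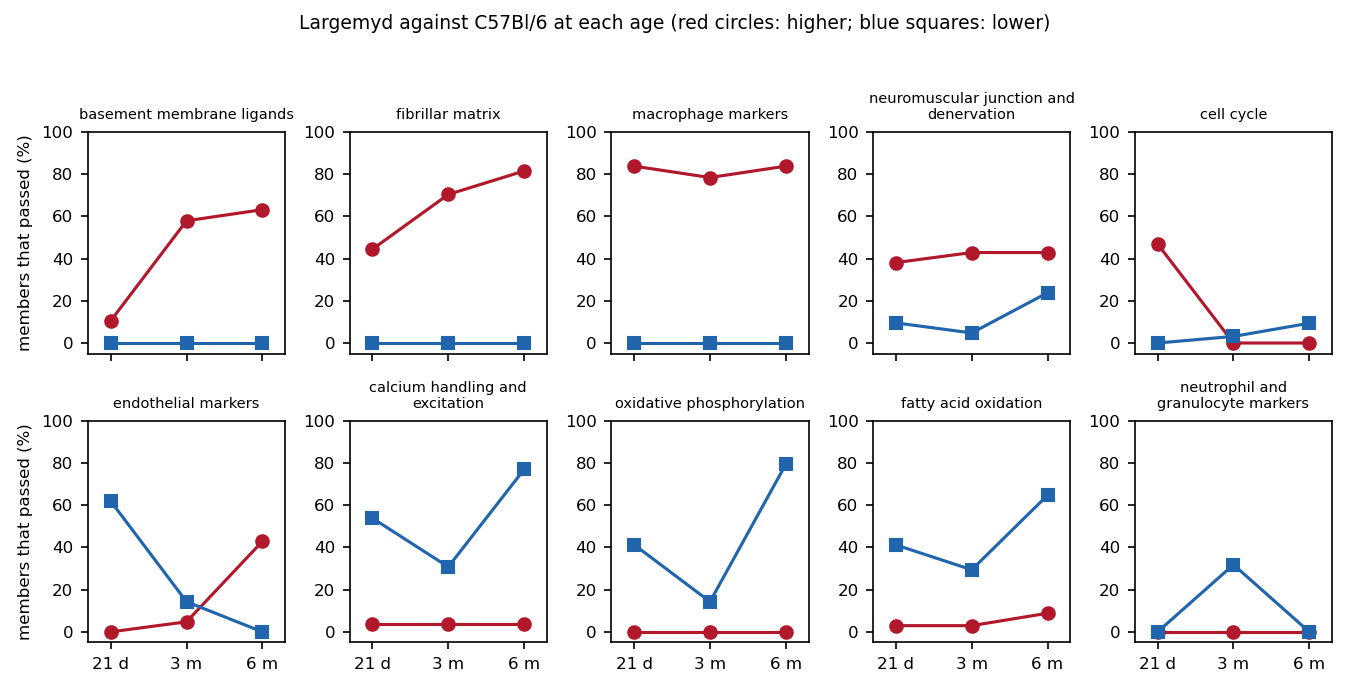
Percent of the measured members of 10 gene lists that passed against C57Bl/6 of the same age, at 21 days, 3 months and 6 months, with red circles for higher and blue squares for lower. Basement membrane genes were higher for 2, 11 and 12 of 19 members and oxidative phosphorylation genes lower for 26, 9 and 50 of 63, with the change between ages passing for 3 basement membrane genes from 21 days to 3 months and for no oxidative phosphorylation gene.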

How the data were processed

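Expression was measured in calf muscle on 60 Affymetrix Mouse Gene 1.0 ST arrays, 5 for each of 4 lineages at 3 ages. The deposited values are log2 RMA values of 35556 probe sets, made in Affymetrix Expression Console per the submitters' processing notes, which name no version of it. RMA compresses changes of dim probes. Of the probe sets 21789 had 1 gene symbol, 1621 several and 12146 none; the brightest probe set of each gene was kept, which left 19938 genes, and 1 planned gene is not reported here. The 12 group means were fitted over all 60 arrays with limma 3.58.1 in R 4.3.3 (48 residual degrees of freedom), and genes with a Benjamini-Hochberg adjusted p under 0.05 were called. The 3-month fold changes are log2 differences of group means. Array means differed between ages, so ages were compared only through differences within an age. The number of arrays limits the precision. The labels give each array to 1 animal; replicate numbers were assigned in accession order and pair nothing. The script was tested on simulated data. The arrays left out as standing apart were those with a marrow, lymph node or skin marker mean over 2 above the median of their age, or Xist over 8, the 2 kinds together being an alternative chosen after seeing the data. Array weights, array medians subtracted, fewer arrays, a filter on dim genes, other probe set and prior rules, and a covariate of erythroid and platelet markers were tried too. Of 1257 genes in 61 lists 1140 were measured. Named genes were the 10 largest rises and falls without overlap, the 5 rises and falls with the largest statistics, up to 5 members of a list that passed and 2 of the opposite direction, the glycosylation enzymes, Dmd, Utrn and Dag1, and the 5 largest of each direction in the other comparisons. Members and lists were chosen with earlier results of these data known. Promoters were found for 151 of 196 named genes in RefSeq.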

Additional observations from a re-analysis of the deposited data

Results flagged for a closer look

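Single arrays lay far from the other 4 of their group, beyond Dixon's critical value, in 49 of 434 groups of 5 values tested, where chance gives about 1 in 20. C57Bl/6 replicate 3 was the array most often apart. Among marker means this array was the highest control for T and NK cell markers (6.90), B cell and plasma cell markers (8.08), neutrophil and granulocyte markers (10.37), erythroid markers (9.30), cartilage markers (8.20) and lymph node markers (7.95), and the lowest for pericyte and smooth muscle markers (9.16) and Schwann cell and nerve markers (7.50). Largemyd replicate 2 had the highest mean of skin and hair markers (7.17). C57Bl/6 replicate 3 lay above its group for S100a8 (12.47), S100a9 (12.04), Ltf (11.28), Chil3 (9.48), Camp (11.23), Slc4a1 (11.63), Laptm5 (11.02), Serpinb1a (9.63), Cd74 (10.57), Irf8 (9.55), Cyp4f18 (8.42), Ms4a4c (7.67), Alas2 (10.65) and Cybb (11.38) and lay below its group for Dpm3 (8.78) and Col15a1 (8.86). C57Bl/6 replicate 2 lay above its group for H2-Ea (6.31) and Myh8 (9.38). C57Bl/6 replicate 4 lay above its group for Ccl7 (7.54) and Ankrd1 (9.66) and lay below its group for Gpcpd1 (11.02) and Gatm (10.06). C57Bl/6 replicate 5 lay above its group for Xist (10.60) and lay below its group for Cd28 (6.93). Largemyd replicate 3 lay above its group for Chrna1 (11.29). Largemyd replicate 1 lay above its group for Lrp4 (8.46) and lay below its group for Akr1e1 (7.52), Dpm2 (8.29), Itga5 (8.80), Ndufa12 (8.95), Anxa4 (9.75) and Nxpe4 (5.91). Largemyd replicate 5 lay above its group for Ngp (8.45), Ltf (6.94), Ankrd1 (11.81) and Alas2 (8.94) and lay below its group for Loxl1 (9.76), Laptm5 (10.94), Lrtm1 (9.62) and Cyba (10.55).

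Between 21 days and 3 months the Largemyd difference from C57Bl/6 changed, by an interaction test in limma, for 24 named genes. It moved upward, on the log2 scale, for Fbln7 (1.08), Sntb2 (0.56), Pomt2 (0.32), Nid2 (0.87), Col15a1 (0.95), Col4a1 (0.58), Col14a1 (1.13), Col3a1 (1.04), Sfrp1 (1.09), Serpinh1 (0.81), Mmp3 (1.75), Il13ra1 (0.69), Igf2 (1.73), Cd28 (1.62), Aplnr (1.57) and Mybph (1.32). It moved downward for Ostn (-1.27), Dglucy (-0.45), Nos1 (-1.35), Lcn2 (-4.09), Myh8 (-1.43), Asb2 (-0.91), Agtr2 (-1.65) and Bdh1 (-1.43). Between 3 and 6 months it changed for 10 named genes. It moved upward, on the log2 scale, for Utrn (0.53), Mcpt4 (1.72), Cma1 (1.02), Rgs13 (0.99) and Ndnf (0.96). It moved downward for Mybph (-1.62), Mical2 (-1.50), Lrtm1 (-1.38), Fbp2 (-1.30) and Casr (-1.21).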

How the results depend on the processing

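Of 165 named genes called between Largemyd and C57Bl/6, 133 were called in each of the 21 settings that included them. The filter on dim genes kept 189 of the 196 named genes. Without each of the 10 arrays in turn, 138 were called. No named gene called with or without the change of setting changed sign, and signs of genes called in neither were not counted. The total of 3773 calls was 6500 with array weights and 3163 to 3714 with 1 array left out. For Largemyd against Dmdmdx the 845 calls became 88 with the arrays of these groups alone, 471 with the arrays of 3 months, 1862 with array weights, 258 without arrays with other-tissue markers, 127 without arrays with high Xist, 89 without both kinds, 200 with the marrow covariate, and 227 (without Dmdmdx replicate 5) to 1394 (without Dmdmdx replicate 1) with 1 array left out. For the double mutant against Largemyd the 227 calls became, in the order of the settings that moved them, 1327 with the arrays of these groups alone, 2700 with array weights, 656 without other-tissue arrays, 359 without high Xist, 547 without both, 428 with the covariate and 103 to 176 with 1 array left out. The 526 changes from 21 days to 3 months became 345 with these groups alone, 967 with array weights and 343 to 698 with 1 array left out. The 82 changes from 3 to 6 months became 37 with these groups alone, 1371 with array weights, 146 without the dimmest 25% of genes, 204 without other-tissue arrays, 15 without high Xist, 170 with the covariate and 10 to 333 with 1 array left out. Fits with fewer arrays have fewer degrees of freedom; otherwise the cause was not tested. The change to 6 months without both kinds of array could not be fitted, since no C57Bl/6 array of that age remained. No paired analysis was possible because the replicate numbers come from accession order and link no animals. Signal close to background limits the dim probe sets.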

Other observations

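Several named genes had values at 2 separate levels within 1 lineage. H2-Ea was high in all 5 Largemyd arrays of 21 days (10.83 to 11.41) and of 3 months (11.34 to 12.28), and in 4 of 5 at 6 months (11.36 to 12.36), where the fifth array read 6.07. In the double mutant it read 11.78, 12.0005, 6.02, 6.22 and 11.78 at 3 months and 11.14, 5.99, 5.75, 5.73 and 5.86 at 6 months. No C57Bl/6 or Dmdmdx array of any age read above 6.35. Hal in the double mutant read 9.28, 9.66, 6.34, 9.93 and 6.67 at 3 months, against 6.19 to 6.50 in C57Bl/6. Akr1e1 read 4.71 to 5.42 in C57Bl/6 and 7.53 to 8.59 in Dmdmdx over the 3 ages. In the double mutant of 3 months it read 4.88, 7.40, 7.34, 7.17 and 4.73, and 2 Largemyd arrays of 6 months read 4.80 and 5.29. Klk1b22 read 8.16 to 9.38 in Largemyd at 3 months and 5.12 to 5.56 in the double mutant, and its Largemyd values at 21 days were 4.57, 4.64, 8.55, 4.34 and 7.00. The labels give no second strain or genotype within a lineage, so these arrays were kept in their groups. Each of these values is 1 array, and the groups within a lineage were not compared.

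Other genes differed between lineages over the 3 ages. Ocel1 read 7.43 to 8.12 in C57Bl/6 and 7.63 to 8.19 in Dmdmdx over the 3 ages, and 8.46 to 9.43 in Largemyd and 8.38 to 9.53 in the double mutant. Pttg1 read 9.13 to 9.9985 in C57Bl/6 and 8.87 to 9.47 in Largemyd, and 7.52 to 8.86 in Dmdmdx and 7.29 to 8.18 in the double mutant. Nxpe4 and Lrmda were lower in the Largemyd arrays of 3 months (5.91 to 6.41 and 6.51 to 6.83) than in the other 15 arrays of that age (7.47 to 8.05 and 7.65 to 8.39). Among windows of 30 neighbouring tested genes, the windows with the most genes that differed between Largemyd and Dmdmdx overlapped on chromosome 8. The window from Ell to Mrpl34 had 10 of 30 called (33.3%), where the median of 19328 overlapping windows was 1. In the same window 14 of 30 genes differed between Largemyd and C57Bl/6 (46.7%). In that comparison 18.8% of the chromosome 8 genes differed, and of all genes 10.6% were higher and 8.37% lower. This window was chosen after its values were seen.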
